A study of Homo sapiens with 2 samples.

Results

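Peaks of RNA in the upstream part of 5′ untranslated regions (5′ UTRs) were collected from 2 libraries of HEK293T, a long-established cell line that derives from human embryonic kidney. A peak was taken when its summit lay, on the same strand, in the 5′ UTR of a protein-coding transcript of its gene and in no coding sequence (CDS) or 3′ UTR of that gene. The summit also had to lie more than 50 nt before the start codon, counted along the spliced transcript. Peaks that overlapped a small RNA gene were dropped, 33 in replicate 1 and 25 in replicate 2. This left 4532 of 96682 distinct peaks in replicate 1, which was 4.69% (exact 95% binomial interval 4.56 to 4.82), and 5072 of 105125 in replicate 2, which was 4.82% (4.70 to 4.96). The intervals cover counting error only. The rule used position alone and no measured level.

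The libraries were replicates 1 and 2 of a single group that the labels call TRACER, a word they do not explain. The cells of both grew in serum-containing medium and received doxycycline at 3 ug/mL for 24 hours. This drug is often used to induce a transgene, and no transgene is named in the labels. Cytoplasmic RNA was isolated with Trizol and made into libraries with a Qiagen kit for microRNAs. The series set out to locate sequences within RNAs to which CCR4-NOT is recruited. Both libraries carry the same labels and no other group was analysed here, so no value could be set against a background library. Nothing in the labels tells whether separate cultures were used, so a spread between the libraries can be purely technical.

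CCR4-NOT is the main deadenylase of the cytoplasm: it shortens the poly(A) tail of messenger RNA and so starts its decay. Most of its known adaptors, such as Pumilio, Roquin and tristetraprolin proteins, bind elements in 3′ UTRs. The 5′ UTR lies between the cap and the start codon and is scanned by the small ribosomal subunit before translation starts. Its known regulatory features include upstream open reading frames (uORFs), which can capture scanning ribosomes, and iron-responsive elements, hairpins bound by iron regulatory proteins. Another is the terminal oligopyrimidine (TOP) tract at the cap of ribosomal protein mRNAs.

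Some sequences under strong peaks are printed here as examples. Each of the next lines gives the 29 nt around the summit of the strongest region of a gene, as RNA, 5′ to 3′, from the GENCODE 29 transcript. The first 7 belong to the strongest regions outside the MTRNR2L genes described below, and the last 5 to CCR4-NOT subunits and to genes of lists taken up later. Capitals mark any of the 10 pentamers most often covered by peaks in 5′ UTRs.
JUN: acuuucccggcugggaggaccggagacaa
NUCKS1: ccaaagagcagcggaguuugagaagccag
SRSF3: UGGACgccgggugagugagagaGUUGGuu
PTGES3: aagaggccgcgaccggagagaaaaagcgg
H3F3B: gguuuggucguucGUUGGgcggugcuggu
HNRNPA2B1: guUCGUGuucguccgcggagaucucucuc
RHOB: ucugGUUGGagcuguugucuuguaugcuc
CNOT1: aagagggggucgaggagagccggaGUCGG
CNOT6: gcgcugcagcagcgggcgGGACUgguaug
EIF5: cugacggguGUGGACcgcggacgucgcug
IER2: ugcguggGUUGGuuugUGUAGAgaggcgu
FTL: uguuUGGACggaacagauccggGGACUcu
G was more frequent than C in every printed window but that of HNRNPA2B1. The window of CNOT1 held 16 G and 4 C, that of IER2 14 G and 2 C, and that of SRSF3 14 G and 3 C. The window of HNRNPA2B1 held 8 G and 9 C. The last 5 windows are a choice, and each of them holds a marked pentamer. Among windows not printed, those of CNOT9, PPP1R15B and AMD1 hold none. That of FTH1 held 6 G and 14 C and that of AMD1 5 G and 7 C. C also exceeded G in the windows of MTRNR2L12 (5 G and 8 C), MTRNR2L8 (6 G and 7 C) and MTRNR2L4 (7 G and 10 C). Others held more G than C.

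The typical upstream 5′ UTR peak was small. Median widths were 28 nt (replicate 1) and 29 nt (replicate 2), and the median read number was 6 in each. The authors' p-value was at or under 1e-05 for 34.2% (32.8 to 35.6) of these peaks in replicate 1, beside 33.7% of all peaks of that library. In replicate 2 it was so for 38.2% (36.9 to 39.6), beside 36.4% of all peaks. The peaks held 48528 reads in replicate 1 and 56380 in replicate 2, which was 3.22% ± 0.232 (SD, n = 2) of all reads in peaks. Such sums do not measure sequencing depth, which is unknown here. At the threshold, 274 and 324 peaks lay just inside it, 51 to 60 nt before the start codon, and 333 and 314 just outside, 41 to 50 nt before it. The median on either side was 6 reads in both libraries.

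The peaks belonged to 2943 genes in replicate 1 and 3157 in replicate 2. Of these genes, 2122 had such a peak in each library, at the same place or not, 821 in replicate 1 only and 1035 in replicate 2 only. An upstream 5′ UTR peak overlapped a peak of any kind in the other library by 1 nt or more in 57.9% (56.5 to 59.4) of cases in replicate 1, beside 60.6% of all peaks. In replicate 2 the share was 52.8% (51.4 to 54.1), beside 55.9% of all peaks. Peaks in the last 50 nt before the start codon repeated more often, at 63.7% (61.6 to 65.7) and 60.4% (58.3 to 62.4), and their intervals did not overlap those of the upstream peaks in either library. Between peaks of like read number the gap was smaller. At 10 to 49 reads, 89.7% and 87.4% of peaks near the start codon repeated, beside 89.7% and 83.0% of upstream peaks. At 3 to 4 reads the shares near the start codon were 36.9% and 33.1%, beside 32.6% and 26.3% of upstream peaks. At 5 to 9 reads they were 61.9% and 54.9%, beside 60.4% and 50.6%. Split by read number, the intervals overlapped in every class of replicate 1. In replicate 2 they did so in every class but that of 3 to 4 reads. Overlapping intervals do not show that the shares are equal, and the difference was not tested. Over all read numbers, the shares for CDS peaks were 60.7% and 53.4%, and those for 3′ UTR peaks 57.6% and 54.4%.

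How often a peak repeated went with its number of reads. Among upstream 5′ UTR peaks of 3 to 4 reads, 32.6% of those in replicate 1 and 26.3% of those in replicate 2 were found in the other library. At 10 to 49 reads the shares were 89.7% and 83.0%. Of the peaks of 50 or more reads, 78 of 80 in replicate 1 and 106 of 107 in replicate 2 were found again. Regions of single genes given below by their position were found in both libraries, while the read sums per gene also hold peaks that were found in 1 library only.

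**Figure D1:**
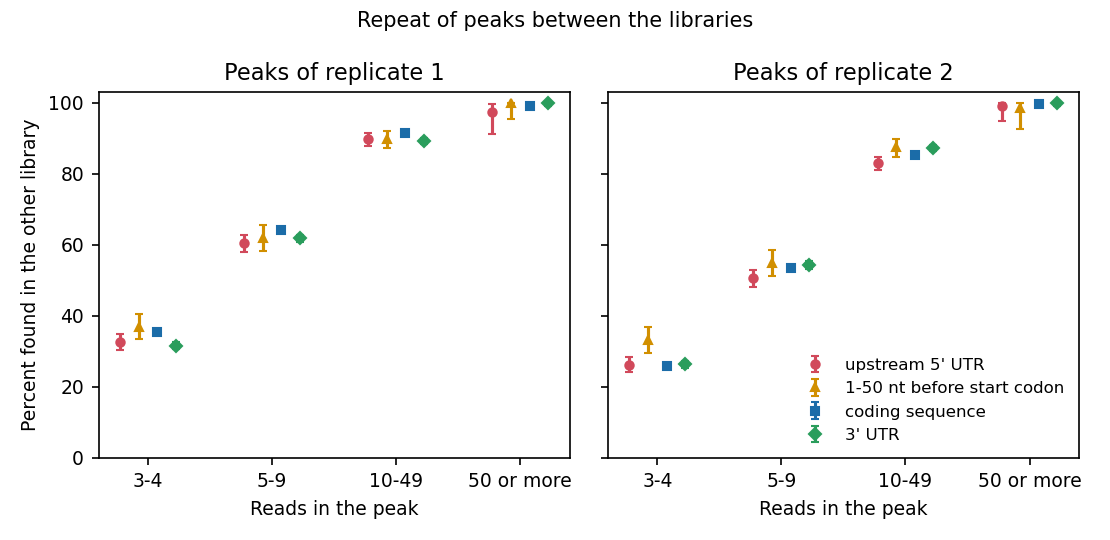
Percent of peaks found in the other library (vertical axis) by reads in the peak (horizontal axis), for each library, for upstream 5′ UTR peaks and for the other parts of the mRNA. Points are percentages and bars exact 95% binomial intervals. Repeat of upstream 5′ UTR peaks went from 32.6% and 26.3% at 3 to 4 reads to 97.5% and 99.1% at 50 or more.

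Overlapping peaks of the libraries were joined into 2412 regions in 1791 genes. Most were weak: 1342 regions (55.6%) had a mean of under 10 reads, and 79 regions in 58 genes had 50 or more. Across these regions log2 reads had a Pearson r of 0.80 and a Spearman rho of 0.74 between the libraries. This is a description, since regions share their 2 libraries and a peak needs at least 3 reads to be listed. For 134 regions (5.56%) the summit also lay in a same-strand exon of another gene, which leaves the gene of origin undetermined.

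The highest read numbers lay in MTRNR2L genes. These are nuclear copies of the mitochondrial 16S ribosomal RNA gene MT-RNR2, and the annotation places much of the copy in their 5′ UTR. MTRNR2L12 had 3780 reads in replicate 1 and 2617 in replicate 2, MTRNR2L8 had 2652 and 1686, and MTRNR2L1 had 692 and 449. All 8 such genes together held 7389 and 4939 reads in 23 and 22 peaks, which was 15.2% and 8.76% of all upstream 5′ UTR reads. Reads that align equally well to copies cannot be assigned, and MT-RNR2 itself had 27761 and 16367 reads in peaks. All 19 MTRNR2L regions had more reads in replicate 1, as MT-RNR2 did. Among the 2393 regions of other genes the order was the opposite more often: 1300 had more reads in replicate 2, 815 more in replicate 1 and 278 the same number. Without MTRNR2L genes, upstream 5′ UTR peaks held 2.59% and 3.09% of all peak reads.

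**Figure D2:**
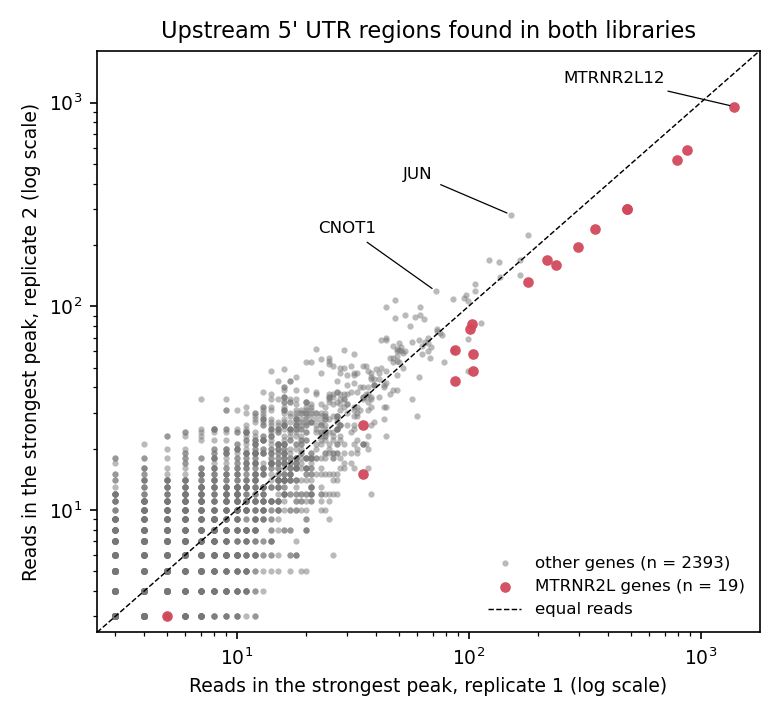
Reads in the strongest peak of each upstream 5′ UTR region in replicate 1 (horizontal axis) and replicate 2 (vertical axis), both on log scales, with 1 point per region found in both libraries and a dashed line at equal reads. The 19 MTRNR2L regions all lie below the line, and most of the 2393 regions of other genes hold few reads.

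Outside the MTRNR2L genes, the strongest region was in JUN, which encodes a subunit of the AP-1 transcription factor. It lay at chr1:58783653-58783756 on the minus strand (GRCh38), 638 nt before the start codon, and held 152 reads in replicate 1 and 282 in replicate 2. A neighbouring JUN region, at chr1:58783536-58783632, held 167 and 168 reads. JUN had 7 upstream regions in its 5′ UTR of 1257 nt, and every one of its 7 and 9 peaks was found in the other library. Its upstream 5′ UTR reads summed to 603 and 1104, which was 34.4% and 39.6% of the reads in all exonic peaks of the gene. Reads in a peak are not scaled for mRNA level or length, so read numbers of different genes are not compared with each other.

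The strongest regions of 6 other genes followed. NUCKS1, a chromatin-associated protein, had a region at chr1:205750057-205750147 (minus strand), 140 nt before the start codon, with 180 and 224 reads. SRSF3, a splicing factor of the SR family, had one at chr6:36594369-36594467 (plus strand) with 166 and 142 reads. The region of H3F3B, a gene for the replacement histone H3.3, lay at chr17:75779713-75779774 (minus strand) with 123 and 168 reads. That of PTGES3, a co-chaperone of HSP90, lay at chr12:56688034-56688133 (minus strand) with 135 and 165 reads. HNRNPA2B1, an RNA-binding protein, had 137 and 139 reads at chr7:26200624-26200703 (minus strand), 61 nt before the start codon and so close to the edge of the rule. In RHOB, a small GTPase, the region at chr2:20447082-20447197 (plus strand) held 107 and 128 reads, and 2 further regions lay between it and the start codon. In these 6 genes the smaller of the 2 values was at least 107 reads.

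Some mRNAs carried a chain of weaker regions instead. PTP4A2, a protein phosphatase, had 6 regions across a 5′ UTR of 986 nt in 2 exons, with 160 and 179 reads in 8 peaks of each library. The strongest of them held 41 and 47 reads, 911 nt before the start codon. GPBP1, a transcription factor, had 86 and 109 reads in 8 peaks of each library, of which the strongest region held 23 and 33. MGAT1, an enzyme of N-glycan synthesis, had 63 and 95 reads in 6 and 9 peaks. Its regions at chr5:180793025-180793098, chr5:180802677-180802714 and chr5:180808642-180808713 (minus strand) lay 124, 135 and 144 nt before a start codon. They therefore belong to different transcripts. TWNK, the helicase of mitochondrial DNA, had 75 and 153 reads. In all 4 genes the reads were spread over several regions, and none of those regions held the gene's reads alone.

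**Figure D3:**
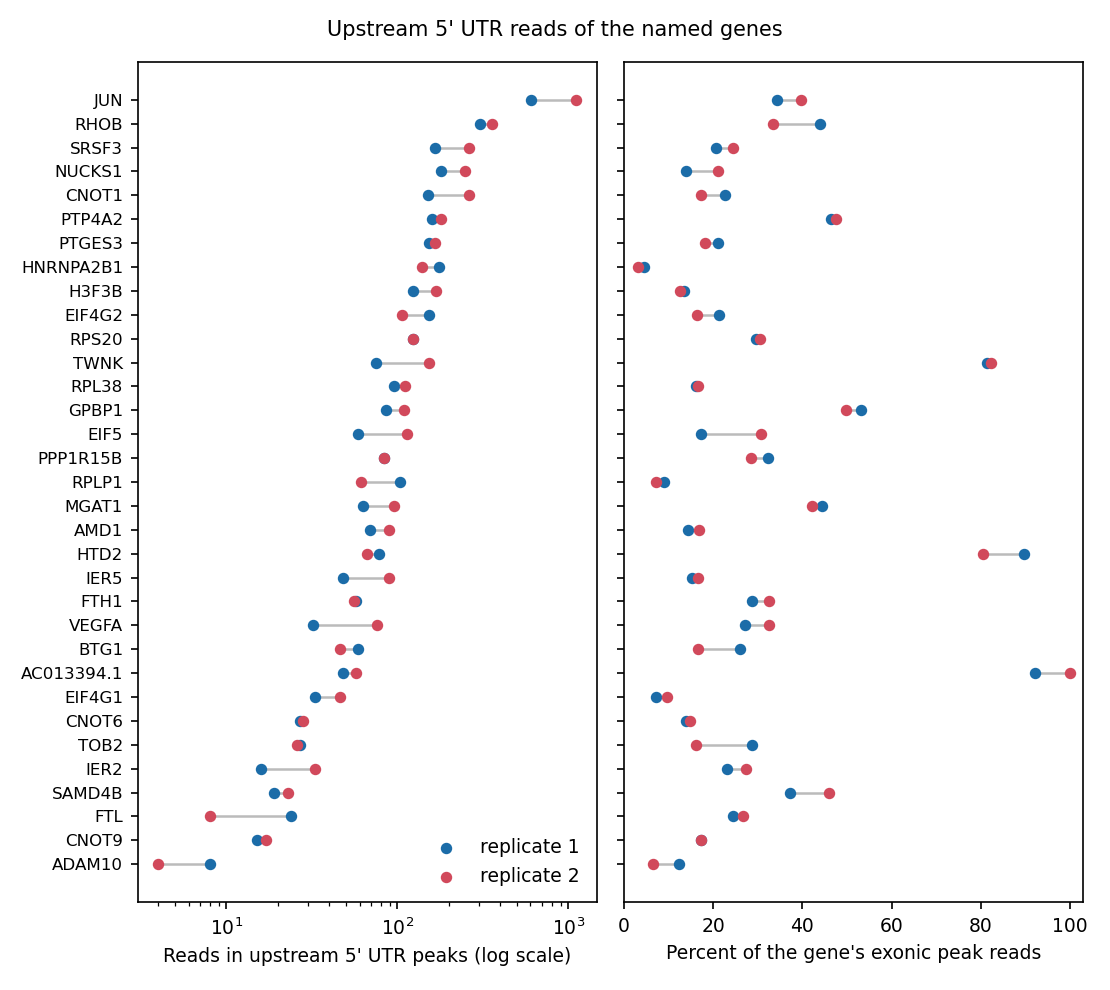
Upstream 5′ UTR reads of named genes outside the MTRNR2L genes in each library (left, log axis) and the percent that these reads make of all reads in exonic peaks of the gene (right), with 1 point per library. AC013394.1 is at 92.3% and 100%, JUN at 34.4% and 39.6%, and HNRNPA2B1 at 4.46% and 3.00%.

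Upstream 5′ UTR reads were then expressed as a percent of each gene's reads in exonic peaks, so that genes of different mRNA level could be set side by side. This was done for 8039 protein-coding genes with at least 10 such reads in each library. At least 1 upstream 5′ UTR peak was present in each library in 1930 of them, or 24.0%, whether or not these peaks overlapped. Counts below of genes with a peak in both libraries have the same meaning. The mean over all 8039 genes was 6.67% in replicate 1 and 6.44% in replicate 2 (6.56% ± 0.162, SD, n = 2), and the median was 0. Over genes with such a peak the median was 15.8% and 14.7%. In 87 genes more than 50% of the exonic peak reads lay there in both libraries. Among the 3928 genes with at least 50 exonic peak reads in each library, the highest values outside MTRNR2L genes were those of AC013394.1, at 92.3% and 100%, and HTD2, an enzyme of mitochondrial fatty acid synthesis, at 89.7% and 80.5%. The strongest regions of both lie in exons of other genes, LINC01578 and RPP14, so these values cannot be assigned to 1 gene. TWNK had 81.5% and 82.3% with no such overlap.

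A longer upstream 5′ UTR held a peak more often. This was counted in 9623 genes that had a CDS or 3′ UTR peak in both libraries, which is a different set from the 8039 scored genes. Where the stretch open to the rule was 1 to 50 nt long, 3.42% of 1376 such genes had an upstream peak in both libraries. The share was 9.57% at 51 to 100 nt, 19.4% at 101 to 200 nt, 29.5% at 201 to 400 nt and 45.3% at 401 nt or more. The counts for gene lists below are given with the median length of that stretch, which was 146 nt over all scored genes.

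Of 11 scored CCR4-NOT subunits, 3 had an upstream 5′ UTR peak in both libraries (27.3%, beside 24.0% of all scored genes), with a median stretch of 274.5 nt. CNOT1, the scaffold of the complex, had 150 reads in replicate 1 and 262 in replicate 2, in 5 peaks each. Its strongest region, at chr16:58629724-58629826 (minus strand) in exon 1, 234 nt before the start codon, held 72 and 119 reads. A further 3 regions, between chr16:58599369 and chr16:58599512, held 11 to 39 reads each. The upstream reads were 22.7% and 17.3% of CNOT1's exonic peak reads. CNOT6, a deadenylase subunit, had 27 and 28 reads, and CNOT9, a subunit that several adaptors contact, had 15 and 17. The values of CNOT6 and CNOT9 differed little between libraries, and CNOT1 had more reads in replicate 2.

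Among 16 scored genes for adaptors that bring CCR4-NOT to mRNA, 4 had such a peak in both libraries (25%, beside 24.0%), with a median stretch of 191 nt. BTG1, an antiproliferative protein that binds the deadenylase, had 59 and 46 reads, of which its strongest region held 43 and 41. The summit of that region, 262 nt before the start codon, lay in a uORF. TOB2, a relative of BTG1, had 27 and 26 reads. SAMD4B, a Smaug-family RNA-binding protein, had 19 and 23, and these were 37.3% and 46.0% of its exonic peak reads. The fourth was RC3H1, the gene for Roquin-1.

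Genes whose translation is known to be set by uORFs had a peak in both libraries in 9 of 17 scored members (52.9%, beside 24.0%). Their median stretch was 286 nt, longer than the 146 nt of all scored genes, and the part of length in that count was not tested. EIF5, an initiation factor whose own start codon choice is regulated, had 59 reads in replicate 1 and 113 in replicate 2. PPP1R15B, a subunit that directs a phosphatase to eIF2-alpha, had 84 reads in each. Its strongest region, at chr1:204411630-204411692 (minus strand), held 36 and 37 reads with the summit inside a uORF. AMD1, an enzyme of polyamine synthesis, had 69 and 89 reads. EIF5 varied more between the libraries than the other 2 did. Translation initiation factor genes as a list had 6 of 28 scored members with a peak in both libraries (21.4%), with a median stretch of 109 nt.

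The iron-responsive element allows a closer look, since its place is known. The elements of FTH1 and FTL, the heavy and light ferritin chains, and of SLC40A1, the iron exporter ferroportin, are shown with the hairpin loop in capitals and 12 nt on either side.
FTH1: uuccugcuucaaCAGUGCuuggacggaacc
FTL: cucuugcuucaaCAGUGUuuggacggaaca
SLC40A1: caacuucagcuaCAGUGUuagcuaaguuug
The loop starts 71 nt from the transcript start in FTH1, 47 nt in FTL and 211 nt in SLC40A1. Of the 6 loop bases, a peak covered 0 in both libraries in FTH1 and SLC40A1, and 0 in replicate 1 and 6 in replicate 2 in FTL. FTH1 had regions on both sides of its element. The strongest, with 27 and 38 reads, lay between the element and the start codon (chr11:61967485-61967531, minus strand), and the other, with 20 and 18 reads, lay on the side of the transcript start (chr11:61967602-61967625). FTL had a single region found in both libraries, at chr19:48965344-48965370 (plus strand), with 12 and 8 reads. It spans the loop, though the peak of replicate 1 left the loop bases uncovered. SLC40A1 had 3 reads in each library and no region in common. Of 3 scored genes with such an element, 2 had upstream peaks in both libraries (66.7%, beside 24.0%), with a median stretch of 160 nt.

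TOP mRNAs, which encode ribosomal proteins and translation factors, had such a peak in both libraries in 12 of 94 scored members (12.8%, beside 24.0%), with a median stretch of 105 nt. Among them RPS20 had 123 and 124 reads, which was 29.6% and 30.5% of its exonic peak reads. RPL38 had 96 and 110 reads in a region at chr17:74203686-74203747, 66 nt before the start codon. RPLP1 had 104 and 61. These ribosomal protein genes have many processed copies in the genome, and how reads were shared among copies is not given in the sources used here.

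Genes with reported internal ribosome entry had a peak in both libraries in 9 of 11 scored members (81.8%, beside 24.0%), with a median stretch of 249 nt. EIF4G2, a translation factor related to EIF4G1, had 152 and 107 reads, and EIF4G1, the scaffold of the cap-binding complex, had 33 and 46. VEGFA, an angiogenic growth factor, had 32 and 76, of which the region found in both libraries held 32 and 47. Of 4 scored genes with a reported G-quadruplex in the 5′ UTR, VEGFA and ADAM10 had a peak in both libraries (50%, beside 24.0%), and the median stretch was 218 nt. Immediate early genes, which respond fast to growth signals, had one in 4 of 8 scored members (50%, beside 24.0%), with a median stretch of 222 nt. These were JUN, IER5 with 48 and 89 reads, IER2 with 16 and 33, and DUSP1. The 3 of these with values here all had more reads in replicate 2. That order was common outside MTRNR2L genes, where 1300 of 2393 regions had more reads in replicate 2 and 815 more in replicate 1. Exonic peak reads were higher in replicate 2 too: 1754 and 2785 in JUN, 313 and 538 in IER5, and 69 and 121 in IER2. The upstream share was 34.4% and 39.6% in JUN, 15.3% and 16.5% in IER5, and 23.2% and 27.3% in IER2. The lists were chosen with results of these data known, so their counts are descriptions and were not tested.

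Within the 5′ UTR the peaks lay toward the start codon. In the representative transcript of each gene, which held 86.1% and 86.2% of the peaks, the stretch open to the rule was divided into 5 equal parts. From the transcript start onward, they held 12.8%, 17.6%, 19.8%, 23.1% and 26.7% of the summits in replicate 1, where an even spread gives 20%. In replicate 2 the shares were 12.3%, 17.8%, 19.7%, 23.4% and 26.9%. The order was the same in both libraries. Summits in the first 30 nt of the transcript made up 6.10% and 5.72%, where an even spread would give 12.4% and 11.9%. Whether each gene used the annotated transcript start was not tested.

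Density along the 5′ UTR was also counted in 9623 genes that had a CDS or 3′ UTR peak in both libraries. Summits in MTRNR2L genes were left out, while the bases of all 9623 genes were counted. In the last 50 nt before the start codon there were 3.92 summits per kb in replicate 1 and 3.99 in replicate 2, beside 2.65 and 3.01 in the CDS. At 51 to 100 nt, the first bases the rule takes, density was 2.46 and 2.65. It was 1.36 and 1.45 at 301 to 500 nt, and 0.873 and 1.05 beyond 500 nt. Each step away from the start codon was lower than the one before in both libraries.

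**Figure D4:**
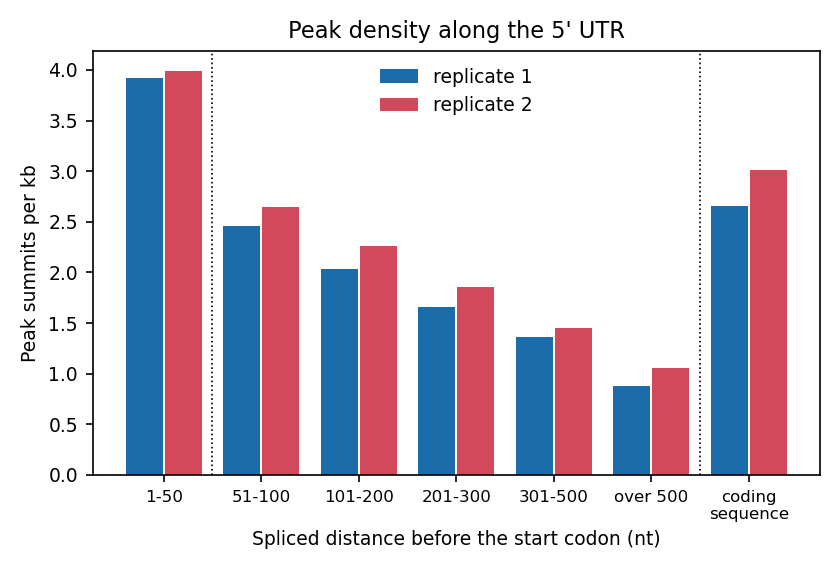
Peak summits per kb (vertical axis, from 0) by spliced distance before the start codon (horizontal axis) in 9623 genes, with 1 bar per library. Density is 3.92 and 3.99 in the last 50 nt and 0.873 and 1.05 beyond 500 nt.

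Whether peaks favoured uORFs depended on how the bases were weighed. Over 3506 genes with an upstream 5′ UTR peak, peaks covered 9.05% of bases inside uORFs and 11.7% outside in replicate 1, and 10.2% and 13.3% in replicate 2. The ratio of inside to outside was 0.770 ± 0.00522 (SD, n = 2). Within genes the sign was the other way: over 1815 genes with at least 30 bases of each kind, mean coverage inside was higher by 1.27 percentage points in replicate 1 and 2.21 in replicate 2. Yet coverage inside was the higher in fewer genes, 655 against 744 and 735 against 808. Bases inside uORFs were 58.5% G or C and those outside 65.7%. In each of 4 classes of local G and C content, peaks of both libraries covered a smaller share of bases inside than outside, with ratios from 0.651 to 0.834. No direction is therefore given for uORFs. AUG triplets themselves were under peaks of both libraries in 410 of 8364 cases, or 4.90% (4.45 to 5.39), beside 5.44% of all triplets.

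The 51 nt around the summits differed little from the rest of the same 5′ UTR in total G and C. The content was 64.7% at the summit and 65.9% in bases under no peak in replicate 1 (2319 genes), and 65.3% and 65.9% in replicate 2 (2517 genes). The mean difference was -0.922 ± 0.439 percentage points (SD, n = 2), with -1.23 in replicate 1 and -0.611 in replicate 2. With at least 10 reads it was -1.78, with a p-value at or under 1e-05 -1.60, and with peaks found in both libraries -1.58. The predicted folding energy was -14.9 and -15.1 kcal/mol at the summits, beside -15.0 and -15.1 kcal/mol in the rest. The mean difference was 0.118 ± 0.0624 kcal/mol (SD, n = 2), with 0.162 in replicate 1 and 0.0735 in replicate 2. Its size depended on the peaks taken: it was 0.381 kcal/mol with a p-value at or under 1e-05, 0.432 with at least 10 reads and 0.417 with peaks found in both libraries.

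The balance of G and C did shift at the summit. In the 15 nt that begin 2 nt upstream of the summit, G made up 41.4% of bases in replicate 1 and 42.0% in replicate 2, beside 34.3% and 34.1% at 30 to 50 nt on either side. C made up 24.0% and 23.9%, beside 31.4% and 31.7%. A differed from its flanks by 1.11 and 0.887 percentage points, and U by -0.768 and -0.953. The same shift was present at summits elsewhere in the mRNA: G was higher by 8.76 and 9.37 points in the CDS and by 8.46 and 8.67 points in the 3′ UTR. The shift was therefore not particular to 5′ UTRs.

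**Figure D5:**
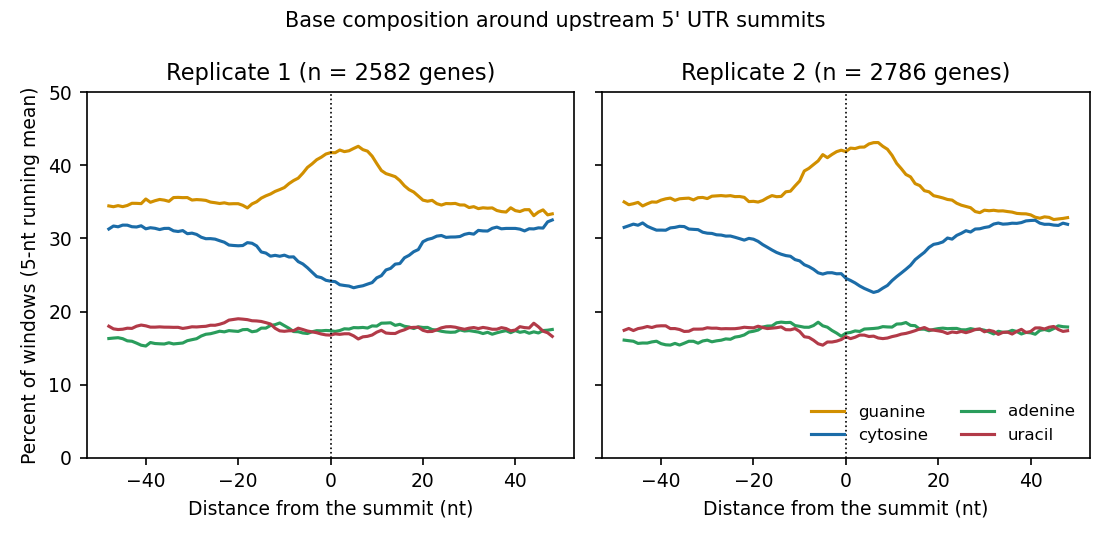
Percent of windows with each base (vertical axis, 5-nt running mean) by distance from the summit of the strongest upstream 5′ UTR peak of each gene (horizontal axis), for replicate 1 (left) and replicate 2 (right). G rises and C falls around the summit, to 41.4% and 42.0% G and 24.0% and 23.9% C in the 15 nt that begin 2 nt upstream of it.

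Motifs were compared by how often each lay wholly under peaks of both libraries, beside the share of all windows of the same length in the same stretches. Each motif was searched on the transcript strand. GGACU, the best-known form of the m6A methylation motif, was covered in 201 of 1554 cases, or 12.9% (11.3 to 14.7), beside 5.08%. GAAGAA, a purine element bound by SR proteins, was covered in 52 of 546 cases, or 9.52% (7.19 to 12.3), beside 4.90%. The pyrimidine motif CCUCCC was covered in 14 of 1954 cases, or 0.716% (0.392 to 1.2), beside 4.90%. Coverage was also below that of windows of equal length for UUUUU, at 1.22%, and for AUUUA, the core of AU-rich elements, at 2.42%, beside 5.08%.

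Of all triplets, GGA was covered most often, at 9.55%, and CCC least often, at 2.29%, beside 5.44% of all positions. All 1024 pentamers were then ranked by coverage. The highest were GAUCG at 16.2%, GUAGA at 14.1% and GUUGG at 13.6%, and GGACU was eighth. Of the leading 20, 19 held at least 2 G and none held CC. Of the last 20, 17 held no G. With another last base the coverage was 10.3% for GGACG, 9.81% for GGACA and 7.88% for GGACC. With A in place of the first G it was 7.24% for AGACU, and with A in place of the second 9.89% for GAACU. With A in place of both G it was 3.23% for AAACU. The 10 leading pentamers mark the sequences printed above. At least 1 of them was present in 34.3% and 34.1% of the 29-nt summit windows, and in 15.9% of all such windows of these stretches. They were ranked on these same peaks, so this last contrast is a description.

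Placed around the summits, GGACU started in the 10 nt just before the summit in 32.0 and 36.1 of every 1000 windows. It did so in 9.33 and 8.18 at 41 to 50 nt before the summit, and in 11.2 and 12.6 at 40 to 49 nt after it. The printed windows of CNOT6 and FTL each hold this pentamer.

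In the CDS and 3′ UTR of the same genes GGACU was covered 3.07 and 3.62 times as often as windows of its length, beside 2.55 times in the upstream 5′ UTR. CCUCCC was covered less often than such windows in all 3 parts. A motif of paired G runs, GGGNNNGGG, differed in direction: it was covered in 2.54% (2.05 to 3.13) of cases beside 4.38% in the upstream 5′ UTR, but in 4.17% (3.44 to 5.02) beside 3.26% in the CDS and 2.02% (1.65 to 2.44) beside 1.5% in the 3′ UTR. The difference between the parts was not tested. The Pumilio element UGUANAUA was covered in 333 of 1917 cases in the 3′ UTR (17.4%) and in 24 of 216 in the CDS (11.1%). The upstream 5′ UTRs held it 24 times, with 0 covered, which allows a share of up to 12.5% (3 counts of 24), so at this number of sites a share like that of the CDS remains possible.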

How the data were processed

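Cytoplasmic RNA of HEK293T cells was sequenced in 2 libraries of 1 group. The authors deposited 1 peak list per library, each with a CLIPper p-value per peak and, in the peak name, a whole number of reads that is not normalised. Per the submitters' processing notes, cutadapt 4.2, UMI-tools 1.1.4 and STAR 2.7.11 were used with GRCh38. Per the names of the deposited files, reads could map to up to 5 loci. Which version and annotation CLIPper used is not stated by these sources. A read can count in neighbouring peaks, and sequencing depth is unknown.

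Peaks were assigned with GENCODE 29 basic transcripts, using the middle of the deposited summit interval. Coordinates are 1-based. Peaks at 1 position under several genes were counted once, except per gene. A representative transcript per gene gave positions, motifs and folding (ViennaRNA 2.7.2). Python 3.11.15, numpy 2.4.6, pandas 2.3.3 and scipy 1.17.1 were used. The parts of the scripts for regions, distances, uORFs and motif coverage were tested on cases with known answers. Shares have exact (Clopper-Pearson) 95% intervals, and no test was made, since there is 1 group. Named genes are the 10 strongest regions found in both libraries (1 per gene), the 5 genes with most repeated peaks, the 5 with the highest share among genes of at least 50 exonic peak reads, and the 3 members of each of 9 lists with most reads. RC3H1 and DUSP1 were named after their values were seen. Members and lists were chosen with earlier results of these data known. The HEK293 genes LIN28B, PAX2 and NEFM had 48 and 73, 10 and 16, and 75 and 68 peak reads, while ALB, HBB, PTPRC and INS had 0 and MYH6 had 0 and 3. Alternatives covered the p-value, reads, distance, overlap, windows, summit and MTRNR2L genes.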

Additional observations from a re-analysis of the deposited data

How the results depend on the processing

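The uORF comparison changed sign when coverage was averaged within genes, as given with that result. None of the 79 alternative values reversed the direction of its result, and 55 of them stayed within the limits set for a like value. Peak number, repeat, share of reads and gene share have no direction and so could not reverse. With 2 libraries, the value of a single library always lies within the SD of their mean. Values with 1 library left out were therefore bound to stay within a limit set by the SD. At a p-value at or under 1e-05, or with at least 10 reads, the mean number of peaks was 1744 or 1428 (all peaks 4802), the repeat 67.4% or 70.1% (55.4%), the relative position 0.610 or 0.613 (0.60), the uORF ratio 0.706 or 0.669 (0.770), the GC difference -1.60 or -1.78 (-0.922), the folding difference 0.381 or 0.432 kcal/mol (0.118), and the gene share 6.74% or 6.91% (6.56%). With peaks of both libraries only, the uORF ratio was 0.725, the GC difference -1.58, the folding difference 0.417 kcal/mol, and G minus C around the summit 19.2 percentage points (17.8 with all), or 20.2 with at least 10 reads. Taking peaks more than 100 nt before the start codon gave a position of 0.581 and a gene share of 4.79%. An overlap of at least 50% of the peak gave a repeat of 45.6%. Chosen after seeing the data, leaving out MTRNR2L genes gave 2.84% of reads (3.22%), and leaving out peaks in an exon of another gene gave a gene share of 6.15%. The cause of these shifts was not tested. With 1 library left out at a time, values ran from 4532 to 5072 peaks, 3.06% to 3.39% of reads, 52.8% to 57.9% repeat, 0.598 to 0.602 position, 0.766 to 0.773 uORF ratio, -1.23 to -0.611 GC difference, 0.0735 to 0.162 kcal/mol, 17.4 to 18.2 points of G minus C, and 6.44% to 6.67% gene share. Of the regions, 55.6% hold under 10 reads, where repeat is low, and this limits single genes. No paired analysis was possible because there is 1 group and no groups share replicate numbers.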
